A study of Mus musculus with 13 samples.

Results

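A set of 10 genes was followed here across both genotypes and both states of activation: Ybx3, Dapl1, Fam53b, Ppm1j, Klhl5, Gsn, Crybg1, Hs3st3b1, Chdh and Slc4a4. They were picked from their strong lower levels in M2 CD4SP thymocytes of CtslΔTEC mice, with these same libraries in view, so their genotype differences are given as a description and without a test. All 10 of the 10 listed genes were found among the 35906 genes of the series. The question was whether each difference between genotypes was kept after 4 h of stimulation.

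RNA was sequenced from sorted CD69-MHCI+ CD4SP thymocytes, the most mature (M2) thymic stage of the CD4 lineage, with 1 library per mouse. All mice carried the transgenic Lm54 T cell receptor and were Rag1-/-, so that 1 receptor dominates their thymocytes. WT animals are labelled Ctsl fl/fl without deletion, whereas CtslΔTEC animals lose the floxed Ctsl alleles through Foxn1-cre, which acts in thymic epithelial cells and leaves the thymocytes themselves with Ctsl. Unstimulated cells came from 4 WT and 5 CtslΔTEC mice, all described by the study as 8 to 12 weeks old unless stated otherwise. Stimulated cells came from 2 other WT and 2 other CtslΔTEC mice and had been cultured in serum-free medium for 4 h on plate-bound LLO:Iab at 1 μg/ml with soluble anti-CD28 at 250 ng/ml. LLO is listeriolysin O, and LLO:Iab is its peptide on the MHC class II molecule that the Lm54 receptor recognises. No cells cultured without antigen were analysed here, and the 4 stimulated libraries share a date of their own, so stimulation, culture and date cannot be told apart.

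Libraries held 25692380 to 39127833 estimated counts in the unstimulated groups, 8085463 and 27184520 in the stimulated WT group and 11792192 and 16866027 in the stimulated CtslΔTEC group. Cd4 lay between 745 and 1156 CPM (counts scaled to a common library size) everywhere, and Foxn1 did not exceed 0.0777 CPM. Ctsl in the thymocytes was 6.31 to 8.84 CPM in unstimulated WT and 11.4 to 17.9 CPM in unstimulated CtslΔTEC cells, which checks nothing of a deletion made in epithelial cells. Cd69, a surface receptor induced within hours of T cell receptor engagement, rose from 43.3 to 64.9 CPM over the unstimulated mice to at least 2670 CPM in each stimulated library. Y-linked genes divided the mice unevenly: their summed level was 340 to 470 CPM in all 5 unstimulated CtslΔTEC mice but only in WT mouse 3 (390 CPM), the other 3 WT mice being at 6.19 to 8.38 CPM. Among stimulated mice each genotype held 1 mouse of either kind.

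A naive T cell leaves the thymus with a programme of quiescence and migration, and engagement of its receptor replaces much of that programme within hours. The listed genes belong to no single pathway. They comprise an RNA-binding protein (Ybx3), a small relative of death-associated protein 1 (Dapl1), a nuclear partner of beta-catenin (Fam53b), a protein phosphatase (Ppm1j), cytoskeletal and ubiquitin ligase proteins (Gsn, Crybg1, Klhl5), and enzymes or transporters of metabolism and of the cell surface (Hs3st3b1, Chdh, Slc4a4).

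The promoters of 5 of these genes are shown because their levels differed by more than 5-fold between genotypes in unstimulated cells and because the listed start lay within 29 bases of the start of their most abundant transcript. Each run covers 250 bases before to 50 bases after the start, from RefSeq on GRCm38.p6, 5′ to 3′ on the strand of the gene. Capitals mark matches, on either strand, to 8 motifs searched: TGTGGT (RUNX), GGGCGG (SP/KLF), CTTTGA (TCF/LEF), TGANTCA (AP-1), TGGAAA (NFAT), GTAAACA (FOXO), CAGCTG (E-protein E-box) and CACGTG (MYC E-box). The regions are chr6:131388401-131388700 on the minus strand for Ybx3, chr2:59484403-59484702 on the plus strand for Dapl1, chr11:63922235-63922534 on the minus strand for Hs3st3b1, chr5:65107318-65107617 on the plus strand for Klhl5 and chr3:104780806-104781105 on the plus strand for Ppm1j.
Ybx3: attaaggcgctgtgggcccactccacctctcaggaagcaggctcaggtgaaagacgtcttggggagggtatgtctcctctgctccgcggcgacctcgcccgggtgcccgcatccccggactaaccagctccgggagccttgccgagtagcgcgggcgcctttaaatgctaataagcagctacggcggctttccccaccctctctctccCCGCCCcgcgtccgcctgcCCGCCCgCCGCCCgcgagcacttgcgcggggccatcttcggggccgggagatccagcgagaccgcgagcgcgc
Dapl1: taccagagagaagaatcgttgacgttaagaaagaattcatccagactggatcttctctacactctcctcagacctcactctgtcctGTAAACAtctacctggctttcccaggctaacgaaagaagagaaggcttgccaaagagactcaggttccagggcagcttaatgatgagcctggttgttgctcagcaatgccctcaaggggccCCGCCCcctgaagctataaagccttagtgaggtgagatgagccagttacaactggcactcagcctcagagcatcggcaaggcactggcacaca
Hs3st3b1: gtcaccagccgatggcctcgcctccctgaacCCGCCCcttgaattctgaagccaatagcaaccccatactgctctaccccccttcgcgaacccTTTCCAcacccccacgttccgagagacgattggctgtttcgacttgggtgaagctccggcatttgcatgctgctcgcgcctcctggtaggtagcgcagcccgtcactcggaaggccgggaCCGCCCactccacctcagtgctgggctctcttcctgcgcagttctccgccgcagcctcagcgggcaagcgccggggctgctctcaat
Klhl5: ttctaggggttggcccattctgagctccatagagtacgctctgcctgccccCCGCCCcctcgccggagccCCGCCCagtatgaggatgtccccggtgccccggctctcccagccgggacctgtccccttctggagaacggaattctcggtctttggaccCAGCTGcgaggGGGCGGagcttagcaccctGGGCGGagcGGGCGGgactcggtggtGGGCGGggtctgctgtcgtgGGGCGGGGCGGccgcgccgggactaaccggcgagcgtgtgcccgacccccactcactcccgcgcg
Ppm1j: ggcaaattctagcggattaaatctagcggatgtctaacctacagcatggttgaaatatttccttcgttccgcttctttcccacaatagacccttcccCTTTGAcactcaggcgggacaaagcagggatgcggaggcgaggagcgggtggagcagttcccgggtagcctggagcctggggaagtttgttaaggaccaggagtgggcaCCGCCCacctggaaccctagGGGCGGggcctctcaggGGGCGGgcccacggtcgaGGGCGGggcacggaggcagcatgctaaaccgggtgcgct

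The letters GGGCGG were found 3 times in the Ybx3 promoter, once in that of Dapl1, 2 times in that of Hs3st3b1, 4 times in that of Ppm1j and 8 times, 2 of them overlapping, in that of Klhl5. Over the 10 genes, taking for each the listed promoter nearest to the most abundant transcript, 9 held it, against 35.6% of the 32817 promoters of the same length. Their GC content ranged from 44.7% to 80%, and the median over all promoters was 52.7%. NFAT letters were in 3 of the 10 promoters (21.4% of all promoters), the E-protein E-box in 2 (16.3%), and TCF/LEF (16.0%), AP-1 (7.81%) and FOXO (3.65%) letters in 1 each. RUNX (16.8% of all) and MYC E-box letters (7.15%) were in none. A match is a run of letters in this window and says nothing of binding. For Fam53b the nearest listed promoter lay 10003 bases from the start of its most abundant transcript, for Crybg1 477 bases and for Slc4a4 442 bases.

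Per length of transcript, in TPM, which divides by transcript length and scales each library to the same sum, the genes differed widely in unstimulated WT cells. Dapl1 was highest at 257 ± 81.4 TPM (SD, n = 4), followed by Gsn at 116 ± 9.87, Fam53b at 68.7 ± 9.12, Chdh at 57.4 ± 3.95, Crybg1 at 39.5 ± 3.53, Ppm1j at 30.3 ± 7.67, Ybx3 at 27.4 ± 3.496, Hs3st3b1 at 19.7 ± 3.49, Klhl5 at 12.2 ± 1.30 and Slc4a4 at 2.44 ± 0.683 TPM. Ppm1j and Ybx3 were neighbours in this order whose means differed by less than either SD. All 10 were thus present in the mature thymocytes of WT mice, Slc4a4 only at a low level.

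In unstimulated cells the mean CPM of CtslΔTEC mice was between 8.36% (Dapl1) and 82.9% (Fam53b) of that in WT mice, with a median of 18.6% over the 10 genes. After stimulation it was between 2.37% (Slc4a4) and 40.0% (Fam53b), with a median of 21.1%. In the fits across all genes, all 10 passed the filter on low counts and all 10 had an adjusted p under 0.1 with lower levels in CtslΔTEC cells in each state, where 8.36% of 13152 genes were called lower in unstimulated and 10.6% of 14241 in stimulated cells. Levels of the genotypes did not overlap for 9 of the 10 in unstimulated cells (7.92% of all genes) and for 10 of 10 in stimulated cells (30.2% of all genes). These contrasts chose the genes and nothing is read from the counts. In bulk RNA, fewer cells that express a gene and less RNA per cell cannot be told apart.

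**Figure D1:**
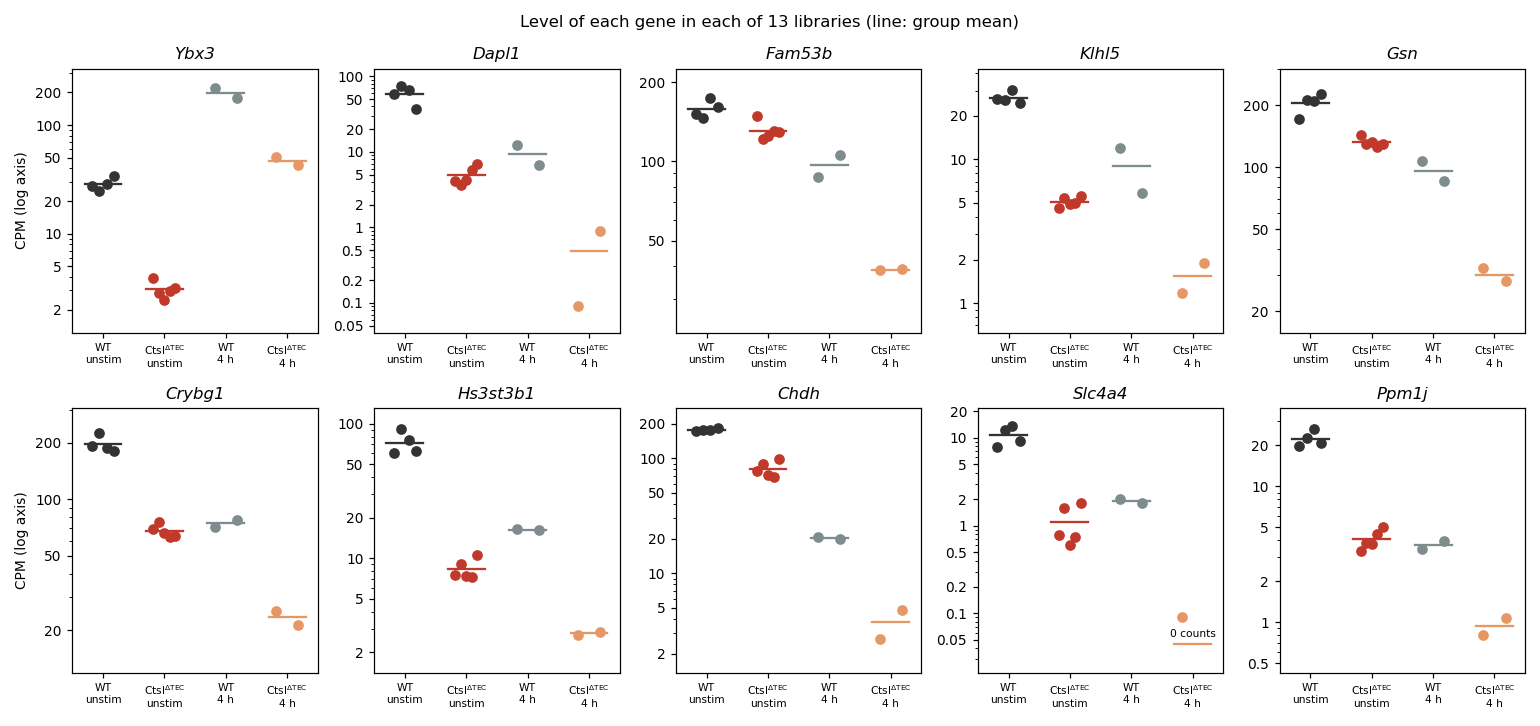
CPM (log axis) of each of the 10 genes in each of the 13 libraries, 1 point per mouse, with lines for the group means; a library with 0 counts is written and not drawn as a point. CtslΔTEC points lie below the WT points of the same state in every panel except Fam53b in unstimulated cells, and Ybx3 is the gene whose stimulated points lie above its unstimulated ones.

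Ybx3 (ENSMUSG00000030189, chr6:131364855-131388476, minus strand) encodes a cold-shock domain protein that binds RNA and DNA. Its level in the 4 unstimulated WT mice was 27.7, 24.9, 28.9 and 34.2 CPM and in the 5 CtslΔTEC mice 3.92, 2.85, 2.46, 2.94 and 3.14 CPM. After stimulation it was 221 and 178 CPM in WT and 51.4 and 42.9 CPM in CtslΔTEC cells. The groups stood far apart in both states, and stimulated CtslΔTEC cells held more Ybx3 than unstimulated WT cells. On the log2 scale the genotype difference was -3.23 (SE 0.14) in unstimulated and -2.08 (SE 0.18) in stimulated cells, so that the mean rose from 10.6% to 23.6% of the WT level. The difference between both states was 1.15 (SE 0.22) on that scale.

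Dapl1 (ENSMUSG00000026989, chr2:59484653-59505020, plus strand) encodes a small relative of death-associated protein 1. It stood at 58.8, 75.6, 65.4 and 36.8 CPM in unstimulated WT mice and at 4.07, 3.67, 4.24, 5.79 and 6.93 CPM in CtslΔTEC mice. WT mouse 4, the lowest of its group, is the only WT mouse of the first of 2 unstimulated file dates. With the date as a factor the log2 difference of Dapl1 in unstimulated cells was -3.46 (SE 0.17), and on the second date only it was -3.60 (SE 0.20). After stimulation 12.2 and 6.601 CPM remained in WT cells, and 0.0903 and 0.885 CPM in CtslΔTEC cells, which rest on 1 and 14 counts. The log2 difference was -3.57 (SE 0.23) before and -4.01 (SE 0.62) after stimulation. It became -6.57 without stimulated CtslΔTEC mouse 7 and -3.33 without mouse 6, so the size after stimulation depends on a pair of sparse libraries.

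Fam53b (ENSMUSG00000030956, chr7:132712082-132813886, minus strand) encodes a nuclear protein that promotes entry of beta-catenin into the nucleus. Unstimulated WT mice had 151, 146, 174 and 161 CPM, and CtslΔTEC mice 148, 122, 125, 130.3 and 129 CPM. The groups overlapped, because CtslΔTEC mouse 1 lay above WT mouse 2. After stimulation WT cells held 87.5 and 106.2 CPM and CtslΔTEC cells 38.6 and 38.9 CPM, with no overlap. The log2 difference was -0.27 (SE 0.08) in unstimulated cells, rank 1597 of 13152 from the lowest, and -1.32 (SE 0.13) in stimulated cells. For unstimulated cells the word strong therefore does not describe the size of the Fam53b difference. It was -0.22 without WT mouse 3 and -0.39 (SE 0.12) with a covariate for Y-linked genes. Its call was lost in both fits, but this contrast chose the genes and nothing is read from the call.

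Ppm1j (ENSMUSG00000002228, chr3:104781056-104786018, plus strand) encodes a serine/threonine phosphatase of the PP2C family. Its level was 19.8, 22.8, 26.2 and 20.7 CPM in unstimulated WT and 3.34, 3.81, 3.76, 4.44 and 5.04 CPM in CtslΔTEC mice. After stimulation it was 3.44 and 3.96 CPM in WT and 0.812 and 1.07 CPM in CtslΔTEC cells, the last on 9 and 17 counts. Stimulated WT cells thus had reached the level of unstimulated CtslΔTEC cells. Its log2 difference between genotypes was -2.45 (SE 0.13) before and -1.96 (SE 0.28) after stimulation. With an offset for transcript length the latter was -2.75 (SE 0.38), and in TPM the CtslΔTEC mean of Ppm1j was 17.3% of WT before and 14.8% after stimulation, against 18.2% and 25.5% in CPM. Fam19a3, annotated on the opposite strand over the same place, stood at 0.929 to 1.14 CPM in unstimulated WT and 0.0253 to 0.374 CPM in CtslΔTEC mice. The study names default parameters for kallisto, which do not use strand, so reads of the overlapping part cannot be told apart.

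Gsn (ENSMUSG00000026879, chr2:35256380-35307892, plus strand) encodes gelsolin, which severs and caps actin filaments. It stood at 172, 211, 209 and 226 CPM in unstimulated WT mice and at 143, 129, 133, 125.9 and 129.7 CPM in CtslΔTEC mice. Stimulated WT cells had 107 and 85.7 CPM and stimulated CtslΔTEC cells 32.2 and 27.9 CPM. The groups were separate in both states, by a narrow margin in unstimulated cells. For gelsolin the log2 difference was -0.63 (SE 0.08) before and -1.67 (SE 0.14) after stimulation, and the mean fell from 64.7% to 31.3% of WT.

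Crybg1 (ENSMUSG00000019866, chr10:43950636-44148853, minus strand) encodes an actin-associated protein with beta-gamma crystallin domains. Unstimulated levels were 193, 226, 188 and 182 CPM in WT and 69.2, 75.5, 66.2, 62.6 and 63.7 CPM in CtslΔTEC mice. Stimulated levels were 70.9 and 77.8 CPM in WT and 25.5 and 21.4 CPM in CtslΔTEC cells. Its genotype difference was about the same in both states, at -1.55 (SE 0.08) and -1.67 (SE 0.14) on the log2 scale. Rtn4ip1, on the opposite strand, lay at 14.9 to 16.7 CPM in unstimulated WT and 15.03 to 17.3 CPM in unstimulated CtslΔTEC mice.

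Klhl5 (ENSMUSG00000054920, chr5:65107539-65168188, plus strand) encodes a BTB-kelch protein, a family that brings substrates to CUL3 ubiquitin ligases. Its unstimulated level was 26.4, 25.7, 30.3 and 24.6 CPM in WT and 4.58, 5.39, 4.88, 4.98 and 5.54 CPM in CtslΔTEC mice. Stimulated levels were 12.05 and 5.86 CPM in WT and 1.17 and 1.90 CPM in CtslΔTEC cells, on 13 and 30 counts in the latter. The WT pair differed more than the unstimulated mice did. The log2 difference was -2.39 (SE 0.09) and -2.43 (SE 0.31), so that 19.0% and 17.1% of the WT mean were measured in the unstimulated and the stimulated state.

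Hs3st3b1 (ENSMUSG00000070407, chr11:63885792-63922290, minus strand) encodes an enzyme that adds 3-O-sulfate to heparan sulfate. It was measured at 60.0, 90.4, 75.3 and 62.4 CPM in unstimulated WT mice and at 7.48, 9.06, 7.45, 7.31 and 10.6 CPM in CtslΔTEC mice. After stimulation it was at 16.4 and 16.3 CPM in WT and 2.71 and 2.85 CPM in CtslΔTEC cells, with little spread within either pair. Between genotypes the log2 difference was -3.10 (SE 0.15) before and -2.55 (SE 0.25) after stimulation. Its near copy Hs3st3a1 did not exceed 0.0290 CPM in any library.

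Chdh (ENSMUSG00000015970, chr14:30009023-30040527, plus strand) encodes choline dehydrogenase, the mitochondrial enzyme that starts the oxidation of choline to betaine. It stood at 172, 177, 176 and 183 CPM in unstimulated WT mice, the tightest of the unstimulated groups over the 10 genes (coefficient of variation 2.52%), and at 76.8, 89.0, 72.2, 68.5 and 98.4 CPM in CtslΔTEC mice. Stimulated WT cells had 20.8 and 19.9 CPM and stimulated CtslΔTEC cells 2.71 and 4.81 CPM. The log2 difference went from -1.13 (SE 0.10) to -2.39 (SE 0.22), and the mean from 45.8% to 18.5% of WT. Cacna1d, annotated on the opposite strand, lay at 1.28 to 2.28 CPM in unstimulated WT and 1.02 to 2.16 CPM in unstimulated CtslΔTEC mice.

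Slc4a4 (ENSMUSG00000060961, chr5:88886818-89239653, plus strand) encodes an electrogenic sodium bicarbonate cotransporter. Unstimulated WT mice had 7.91, 12.2, 13.5 and 9.16 CPM, and CtslΔTEC mice 0.784, 1.602, 0.596, 0.749 and 1.80 CPM. Stimulated WT cells had 1.99 and 1.83 CPM, on 15 and 47 counts, whereas the stimulated CtslΔTEC libraries held 1 count and 0 counts. A count of 0 allows up to 3 counts in that library. Summed over the pair and set against the totals, 1 count against 62 is 1.98% of WT, with an exact 95% interval from 0.0495% to 11.5% that covers counting error only. The log2 difference was -3.25 (SE 0.31) in unstimulated cells, and the fitted value in stimulated cells (-5.49, SE 1.0) depends on that 1 count, being -8.77 without stimulated CtslΔTEC mouse 6 and -4.33 without mouse 7.

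**Figure D2:**
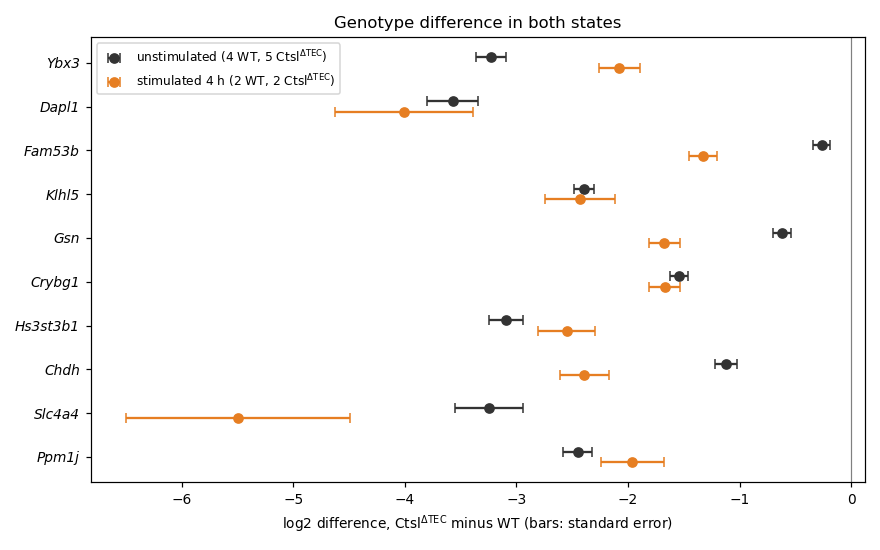
Genotype difference of each gene on the log2 scale (CtslΔTEC minus WT), in unstimulated cells (4 WT, 5 CtslΔTEC mice) and in cells stimulated for 4 h (2 of each), with standard errors from edgeR. All 20 values lie below 0; Fam53b, Gsn and Chdh lie further from 0 after stimulation (-1.32, -1.67 and -2.39) than before (-0.27, -0.63 and -1.13), and Ybx3 lies nearer to 0 (-2.08 against -3.23).

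The direction in both states was fixed by the choice of the genes, and only the sizes are described. Beyond the values above, the difference between states was -1.05 (SE 0.15) for Fam53b, -1.05 (SE 0.17) for Gsn and -1.26 (SE 0.25) for Chdh on the log2 scale, where a negative value is a larger deficit after stimulation. It was -0.13 (SE 0.16) for Crybg1, -0.04 (SE 0.34) for Klhl5, 0.49 (SE 0.33) for Ppm1j, 0.55 (SE 0.30) for Hs3st3b1, -0.43 (SE 0.75) for Dapl1 and -2.24 (SE 1.33) for Slc4a4. For Ppm1j it turned to -0.17 (SE 0.42) with the length offset. Leaving out single stimulated mice took it from -2.99 to 0.25 for Dapl1 and from -0.54 to 0.50 for Klhl5. For Slc4a4 it went from -5.52 to -1.08. The Slc4a4 value rests on 1 count, and its exact interval, up to 11.5% of WT, includes the unstimulated 10.3%. The value of Crybg1 was smaller than its SE. No direction of this change is given for Ppm1j, Dapl1, Klhl5, Slc4a4 or Crybg1. Of the 10 genes, 4 (Ybx3, Fam53b, Gsn and Chdh) had an adjusted p under 0.1 in the fit of this interaction, where 6.01% of 14241 genes did in either direction, 695 with a negative and 161 with a positive value. As both of its parts chose the genes, nothing is read from that count.

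The change on stimulation, averaged over both genotypes, was not used to choose the genes and was tested across 14241 genes by edgeR's quasi-likelihood test. All 10 changed: Ybx3 rose and the other 9 fell. The background was wide, as 37.2% of all genes were called higher and 40.3% lower, with a median log2 change over all genes of -0.04, and 9 falls among 10 genes are to be read against that 40.3%. Ybx3 rose by 3.36 on the log2 scale (SE 0.11, adjusted p = 5.59e-13), from a mean of 28.9 to 199.5 CPM in WT and from 3.06 to 47.2 CPM in CtslΔTEC cells, and it was higher in all 4 stimulated libraries than in the 9 unstimulated ones.

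Chdh fell by 3.76 on the log2 scale (SE 0.14, adjusted p = 2.54e-12 by edgeR), to 11.5% of the unstimulated mean in WT and 4.64% in CtslΔTEC cells. Slc4a4 changed by -3.62 (SE 0.50, adjusted p = 9.99e-06), Dapl1 by -2.95 (SE 0.34, adjusted p = 1.16e-06) and Ppm1j by -2.33 (SE 0.16, adjusted p = 2.84e-09). Both sparse genes depend on single libraries here too. Without stimulated CtslΔTEC mouse 6 the change of Slc4a4 was -5.27, and without mouse 7 it was -3.05. That of Dapl1 was -4.24 without mouse 7 and -2.62 without mouse 6, so no order is given among Chdh, Slc4a4 and Dapl1. In WT cells alone the stimulated mean was 17.8% of the unstimulated mean for Slc4a4, 15.9% for Dapl1 and 16.5% for Ppm1j. These members were thus already low in stimulated WT cells, and the CtslΔTEC values lay below that reduced level.

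The smaller falls were those of Hs3st3b1 (-1.87 on the log2 scale, SE 0.15, adjusted p = 1.81e-08), Klhl5 (-1.67, SE 0.18, adjusted p = 6.65e-07), Gsn (-1.61, SE 0.09, adjusted p = 2.37e-10), Crybg1 (-1.47, SE 0.08, adjusted p = 3.81e-10) and Fam53b (-1.23, SE 0.08, adjusted p = 1.28e-09), all by edgeR's quasi-likelihood test. Within WT mice the stimulated mean was 61.3% of the unstimulated mean for Fam53b and 47.1% for Gsn, and within CtslΔTEC mice 29.6% and 22.8%. Crybg1 fell to 37.7% in WT and 34.7% in CtslΔTEC cells. For Klhl5 the means were 33.5% and 30.3%, the former from 2 WT mice that lay far apart. These stimulation values carry the limit on culture and date given above.

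**Figure D3:**
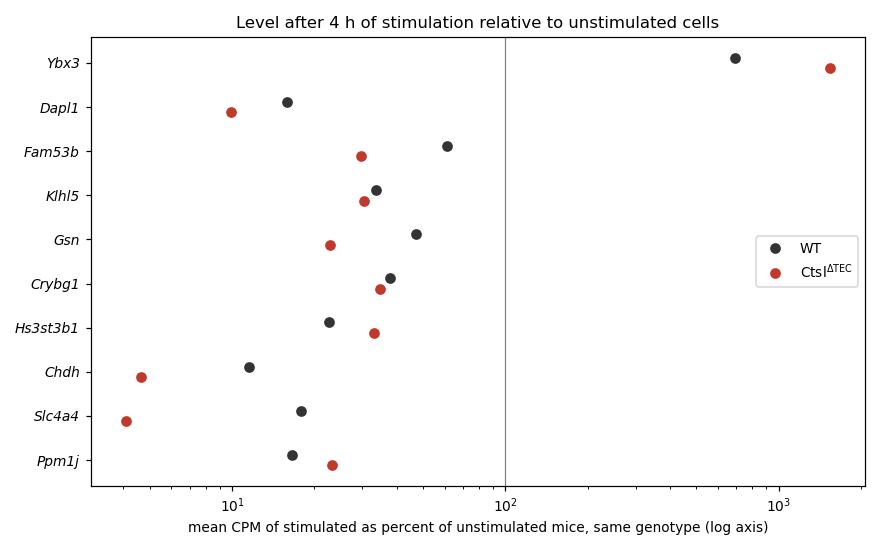
Mean CPM after 4 h of stimulation as a percent of the unstimulated mean of the same genotype (log axis), for WT (4 unstimulated and 2 stimulated mice) and CtslΔTEC (5 and 2). Ybx3 lies above 100% in both genotypes (689% and 1540%) and the other 9 genes below it, from 61.3% for Fam53b in WT to 4.08% for Slc4a4 in CtslΔTEC cells.

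The make-up of transcripts did not enter the choice of the genes. Of the members with at least 20 counts in every unstimulated library, 6 had at least 2 transcripts holding 5% or more of the TPM of the gene, 14 transcripts in all. None of the 14 shares differed between genotypes in unstimulated cells in exact permutation tests (two-sided, all arrangements of the 9 mice): 0 had an adjusted p under 0.1, 0 had an unadjusted p under 0.05, and the smallest p was 0.111, for Chdh-201, where 0.00794 was the smallest possible. Ybx3-202, the main Ybx3 transcript, made up 77.5% ± 0.970 (SD, n = 4) of Ybx3 in WT and 75.9% ± 7.41 (SD, n = 5) in CtslΔTEC mice, although the gene itself stood at 10.6% of its WT level there. Gsn-205 held 83.1% ± 2.46 and 83.5% ± 1.99, and Fam53b-201 37.8% ± 1.57 and 36.9% ± 3.499, in WT and CtslΔTEC mice.

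Stimulation went with a shift between 2 Fam53b transcripts. The share of Fam53b-201 (chr7:132712084-132786919, 5052 bases) was 32.3% to 41.5% over the 9 unstimulated mice and 16.1% to 29.0% over the 4 stimulated ones. That of Fam53b-202 (chr7:132712088-132813886, 4341 bases), which starts further upstream, was 4.05% to 11.7% and 12.6% to 19.2%. Neither share overlapped between states, and both moved the same way in each genotype. The mean changes of -15.6 and 8.22 percentage points each had p = 0.00317 by exact permutation within genotype, the smallest it can give, and an adjusted p of 0.0222 over the 14 transcripts. Fam53b-203 and Fam53b-208 also start upstream of Fam53b-201 but did not rise. They differed by -1.34 and -1.16 points (exact permutation, adjusted p = 0.432 and 0.725).

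Of the other transcripts, Ybx3-202 lost 10.1 points on stimulation (exact permutation, adjusted p = 0.0296), although its unstimulated range of 64.7% to 82.6% overlapped the stimulated range of 58.8% to 72.7%. The share of Gsn-205 differed by -10.5 and that of Gsn-201 by 3.72 points (exact permutation, adjusted p = 0.0889 for each). Gsn-205 was at 59.6% and 75.6% in stimulated WT mice but at 67.8% and 88.3% in stimulated CtslΔTEC mice, on either side of their unstimulated range. Chdh-203, a non-coding transcript of 383 bases, also had an adjusted p of 0.0889 by exact permutation, but no change is read from it. It held 20 to 64 of the 1938 to 6589 Chdh counts of unstimulated libraries, so that 0 of the 30 and 76 Chdh counts in stimulated CtslΔTEC libraries is what sparse counts give without any change. The number of the 14 shares called, 6 with Chdh-203, became 2 without unstimulated CtslΔTEC mouse 1 or mouse 5 or stimulated CtslΔTEC mouse 7. Leaving out each of the 13 mice in turn, Fam53b-201 and Fam53b-202 were called every time (highest adjusted p = 0.0778, exact permutation). Ybx3-202 was called 10 times, and lost its call without those same 3 mice. Gsn-205 was called 5 times and Gsn-201 3 times, so that neither is read as a change.

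Slc4a4 stayed outside these tests because unstimulated CtslΔTEC mouse 3 had 16 counts. Its long transcript Slc4a4-207 (chr5:88886818-89239653, 7931 bases) made up 64.6% to 73.1% of Slc4a4 in the 4 WT mice and 29.6% to 58.5% in the 5 CtslΔTEC mice. Slc4a4-201 (chr5:89028077-89042362, 2518 bases), a short transcript from within the gene, made up 7.23% to 22.3% and 33.3% to 59.8%. In estimated counts the lower level lay in Slc4a4-207, with 248 to 343 in WT and 12.1 to 44.5 in CtslΔTEC mice, whereas the ranges of Slc4a4-201 overlapped (10.8 to 23.3 and 4.06 to 26.5). This pattern was seen after the values were known and was not tested.

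**Figure D4:**
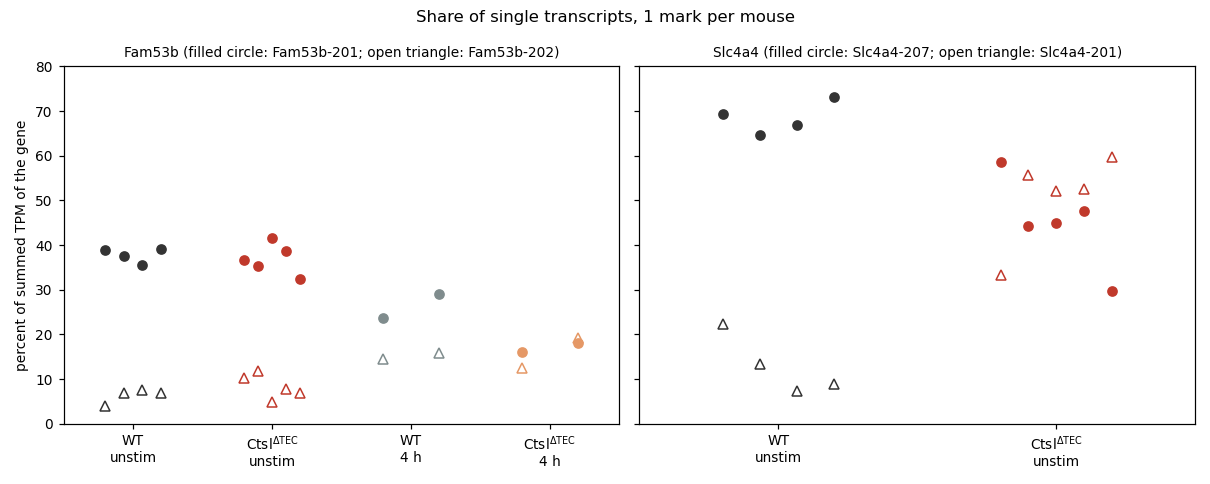
Share of single transcripts in the summed TPM of their gene, 1 mark per mouse, for Fam53b in the 4 groups and for Slc4a4 in unstimulated cells. Fam53b-201 (filled circles) goes from 32.3% to 41.5% before to 16.1% to 29.0% after stimulation while Fam53b-202 (open triangles) goes from 4.05% to 11.7% to 12.6% to 19.2%; Slc4a4-207 lies at 64.6% to 73.1% in WT and 29.6% to 58.5% in CtslΔTEC mice.

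Relatives and pathway partners of the 10 genes, 133 in all, were examined from lists of protein families and pathways. Of 96 tested in unstimulated cells, 12 (12.5%) were lower and 2 (2.08%) higher in CtslΔTEC mice by edgeR's quasi-likelihood test at an adjusted p under 0.1, against 8.36% and 6.42% of all genes. With a covariate for Y-linked genes 2 related genes were called in place of 14, where calls over all genes went from 1943 to 432. Of 102 tested in stimulated cells, 16 (15.7%) were lower and 1 (0.980%) higher, against 10.6% and 2.77% of all genes. With the 4 stimulated libraries alone 7 were called in place of 17, where calls over all genes went from 1898 to 1127. The median log2 difference of the lists was -0.00 and -0.16, beside 0.01 and -0.05 over all genes. On stimulation 25 (24.5%) rose and 54 (52.9%) fell, against 37.2% and 40.3% of all genes, with a median of -0.33 beside -0.04 over all genes.

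Among cold-shock relatives of Ybx3, 1 of 4 tested was lower in unstimulated CtslΔTEC cells and none was called in stimulated cells. Carhsp1, a small RNA-binding protein, was lower by -0.69 on the log2 scale (SE 0.11, edgeR adjusted p = 0.00176), and Ybx1, the closest relative, differed by -0.10 (SE 0.08, edgeR adjusted p = 0.524). Ybx1 rose on stimulation by 1.33 (SE 0.08, edgeR adjusted p = 3.89e-10), in the same direction as Ybx3. Dap, the only relative listed for Dapl1, was lower in both states, by -0.37 (SE 0.11, edgeR adjusted p = 0.0546) and -1.69 (SE 0.19, edgeR adjusted p = 0.000143), and changed by -2.04 (SE 0.12) on stimulation.

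In the beta-catenin list of Fam53b, 1 of 10 was lower in unstimulated cells (Fam53c, -0.24, SE 0.07) and 3 in stimulated cells, led by the beta-catenin target Axin2 (-1.05, SE 0.23) and the T cell factor Tcf7 (-0.84, SE 0.18). Of these 10 genes 9 fell on stimulation, where 40.3% of all genes did, with a median of -0.55 beside -0.04 over all genes. Of 17 PP2C phosphatases beside Ppm1j, 1 was lower in unstimulated cells and 3 in stimulated cells. Phlpp1, a phosphatase of AKT, was lower in both, by -0.65 (SE 0.09, edgeR adjusted p = 0.00063) and -0.43 (SE 0.14, edgeR adjusted p = 0.0759).

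Among gelsolin relatives, Capg, which caps actin filaments, was lower in both states, by -0.47 (SE 0.13) and -0.86 (SE 0.21), and Vill in unstimulated cells by -0.78 (SE 0.26), 2 of 6 tested and 1 of 7 tested in all. Scin, another actin-severing protein, rose by 4.27 (SE 0.27) on stimulation whereas Gsn fell, but it had at most 16 counts in unstimulated libraries. Its level was 0.101 to 0.466 CPM there and 3.31 to 6.32 CPM after stimulation. Of the relatives of Crybg1, Crybg2 was lower by -0.48 (SE 0.14) in unstimulated cells and differed by 0.37 (SE 0.22, edgeR adjusted p = 0.353) in stimulated cells, and Crybg3 was called in neither. Among 29 and 31 KLHL proteins and partners tested, 3 were lower and 1 higher in unstimulated cells and 3 were lower in stimulated cells, all of the 29 with a smaller log2 difference than Klhl5. Klhl6, known from B cell receptor signalling, was lower by -0.30 (SE 0.07), and Klhl31, the 1 that was higher (1.07, SE 0.36), had at most 16 counts. In stimulated cells Klhl35 (-2.74, SE 0.94) and Klhl21 (-0.77, SE 0.17) were furthest from 0 among those called, but Klhl35 was at 0 and 0.181 CPM in CtslΔTEC and 0.466 and 0.662 CPM in WT cells, too few counts for its size to be firm.

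For heparan sulfate enzymes, 1 of 11 was lower (Extl3, -0.33, SE 0.09) and 1 higher (Hs2st1, 0.32, SE 0.06) in unstimulated cells, and 3 of 12 were lower in stimulated cells, Extl2 by -1.21 (SE 0.31) and Ndst1 by -0.43 (SE 0.10) being furthest from 0. In the choline and betaine list of Chdh, 0 of 13 genes were called in unstimulated cells, and in stimulated cells the choline transporter Slc44a1 was lower by -0.78 (SE 0.14) while its relative Slc44a2 was higher by 0.69 (SE 0.16). Slc4a8, a sodium-dependent bicarbonate transporter, was lower in both states, by -1.0 (SE 0.14, edgeR adjusted p = 0.000814) and -1.24 (SE 0.30, edgeR adjusted p = 0.0179), the 1 called among 3 and 4 SLC4 relatives tested. Slc4a7, a relative that Slc4a4 did not follow, rose on stimulation by 3.06 (SE 0.11).

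Genes with the pattern most like that of the members were looked for over the 13 libraries, by the root mean square distance of centred log2 CPM from the median profile of the 10. The nearest were Samhd1 at 0.43, Klhdc2 at 0.47, Aldh2 at 0.51, Vim at 0.56 and Zfp704 at 0.56, where the median distance over all genes compared was 1.38. The members themselves lay between 0.24 (Klhl5) and 2.49 (Ybx3) from their own median. Samhd1, a nucleotide triphosphohydrolase, went from 115 ± 12.4 (SD, n = 4) in WT to 44.3 ± 11.7 CPM (SD, n = 5) in CtslΔTEC mice, and from 40.7 ± 4.81 to 12.7 ± 3.15 CPM (n = 2 each) in stimulated cells. Vim, the intermediate filament vimentin, stood at 35.6% of WT in unstimulated and 35.1% in stimulated cells.

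Markers of other cells and stages were measured beside these results. Summed TPM of 11 markers of CD4+CD8+ double-positive thymocytes, the stage before CD4SP cells, was 134 to 175 in unstimulated WT and 327 to 402 in unstimulated CtslΔTEC mice, and 31.8 to 34.1 and 66.0 to 68.1 in stimulated cells. Of 19 late maturation genes tested, 10 were lower and 4 higher in unstimulated CtslΔTEC cells, and 11 lower and 3 higher in stimulated ones, where 8.36% and 6.42%, and 10.6% and 2.77%, of all genes were called. Among those lower in unstimulated cells were the surface protein Ly6c1 (-1.30, SE 0.26, edgeR adjusted p = 0.00691) and the interleukin receptor Il7r (-1.08, SE 0.17, edgeR adjusted p = 0.00194). Those higher in unstimulated cells were the MHC class I genes H2-K1, H2-D1 and H2-Q7 and their light chain B2m, H2-Q7 by 1.06 (SE 0.20, edgeR adjusted p = 0.00532). The unstimulated calls are from the fit without the Y-linked covariate, with which calls over all genes went from 1943 to 432. Which of these genes kept a call with it is not given here. Regulatory T cell markers summed to 114 to 143 TPM in unstimulated WT and 228 to 254 TPM in unstimulated CtslΔTEC mice, with Foxp3 below 1 TPM everywhere. After stimulation they summed to 517 to 549 and 556 to 589 TPM. Izumo1r alone made up 69.0 to 99.0 and 175 to 206 TPM of the unstimulated sums. Il2ra was also higher there in CtslΔTEC mice, Ikzf2 was lower, and the others overlapped. Il2ra made up 228 to 285 and 286 to 300 TPM of the stimulated sums. It, Izumo1r and Ctla4 were then higher in CtslΔTEC cells, whereas Foxp3, Ikzf2, Tnfrsf18 and Gpr83 were lower. These sums are not read as a difference in regulatory T cells. The part of these differences in the lower levels of the 10 genes was not tested.

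All 10 markers of mature CD4 T cells were at 1 TPM or more in some library. Of fibroblast markers, 9 of 9 were under 1 TPM in every library, and their sum did not exceed 0.962 TPM. Macrophage and monocyte markers summed to 6.82 to 11.1 and 10.95 to 16.9 TPM in unstimulated WT and CtslΔTEC and 5.09 to 12.2 and 5.99 to 8.58 TPM in stimulated cells, and 5 of 10 were under 1 TPM everywhere. Dendritic cell markers summed to 1.51 to 12.9 and 4.11 to 7.50 TPM, then 28.1 to 34.8 and 20.7 to 23.2 TPM (6 of 10 under 1 TPM), and B cell markers did not exceed 2.58 TPM (6 of 7 under 1 TPM). Erythroid markers summed to 189 to 318 and 160 to 771 TPM, then 34.5 to 34.8 and 9.67 to 63.1 TPM. Thymic epithelial markers summed to 31.2 to 43.1 and 26.7 to 35.4 TPM, then 28.0 to 32.4 and 25.6 to 30.4 TPM, with Foxn1, Psmb11, Krt5, Krt8 and Aire under 1 TPM. No marker of these lists was at 0 in every library.

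Levels in mice matched for Y-linked genes were set side by side, as a description, since these same libraries chose the genes and nothing is read from the counts. In unstimulated cells the 5 CtslΔTEC mice, set against WT mouse 3 alone, were lower for 10 of 10 genes, at 7.56% (Dapl1) to 75.3% (Fam53b) of that mouse, where 48.2% of all genes were lower. In stimulated cells CtslΔTEC mouse 7 against WT mouse 6, both high in Y-linked genes, was lower for 10 of 10 genes, with Slc4a4 at 0 and the others up to 36.6% (54.3% of all genes were lower). CtslΔTEC mouse 6 against WT mouse 5, both low, was lower for 10 of 10, at 0.741% to 44.2% (54.8% of all genes were lower). Ybx3 stood at 24.1% and 23.2% in these pairs, Hs3st3b1 at 17.5% and 16.5%, and Gsn at 32.6% and 30.2%. Dapl1 (13.4% and 0.741%) and Klhl5 (32.4% and 9.74%) were less even, and both rest on few counts in CtslΔTEC cells.

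**Figure D5:**
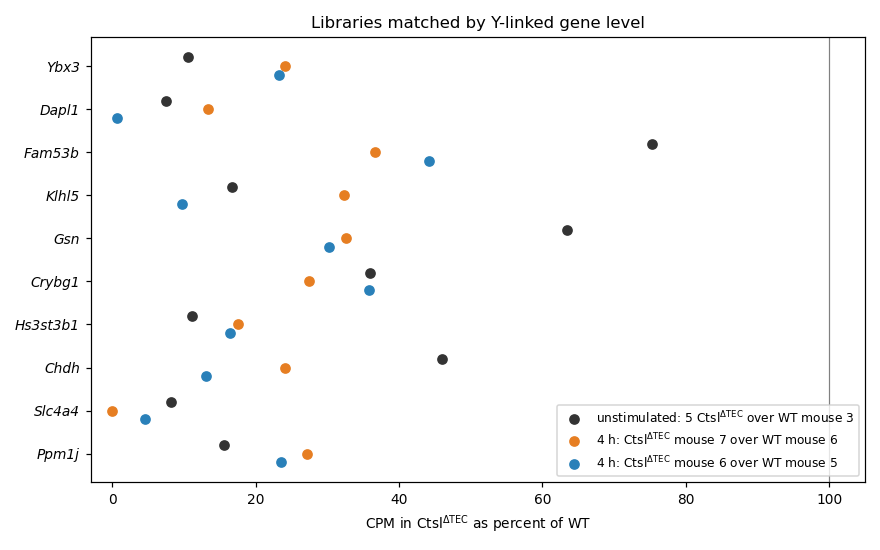
CPM in CtslΔTEC as a percent of WT for each gene, within libraries of like Y-linked gene level: the 5 unstimulated CtslΔTEC mice over WT mouse 3, and both stimulated pairs of single mice. All points lie below 100%, the highest being Fam53b at 75.3% in unstimulated cells.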

How the data were processed

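RNA was sequenced from M2 CD4SP thymocytes of 13 mice, 1 library each, and samples were grouped by the genotype and stimulation in their labels. Per transcript, the files hold an estimated count, a TPM value and an effective length, which the authors obtained from kallisto 0.48 with Ensembl 106 transcripts. Replicates were not pooled. The deposited estimated counts are not normalized, and the deposited TPM values are scaled per library and length by the authors. The labels name polyA RNA, whereas the study's methods name rRNA depletion, and which applies was not settled here.

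Estimated counts were summed to genes through GENCODE M21 (GRCm38), which paired 116397 of 117497 transcripts and left 0.461% of a library's counts or less without a gene, and were rounded to whole numbers. Comparisons between groups used edgeR 4.0.16 under R 4.3.3 (filterByExpr, TMM, quasi-likelihood test, Benjamini-Hochberg adjustment, threshold 0.1), unstimulated genotypes over 9 libraries and the other comparisons in a 4-group model of all 13. Standard errors are the log2 difference divided by the square root of F. Transcript shares were compared by exact permutation tests in Python 3.11.15. Methods were tested on simulated counts with 200 changed genes. The fits recovered 179 of them for the unstimulated and 133 for the stimulated genotype difference. They recovered 163 for the change on stimulation and 97 for the interaction, so a gene without a call is not shown to be unchanged. No pair of replicates held identical values or agreed within sampling noise (lowest chi-square per degree of freedom 9.69). Each library is from a different mouse. The members, lists and tests were chosen with earlier results of these data known. Named genes are the 10 members, up to 2 called genes of each related list with the largest change in a comparison, lists of 3 genes or fewer in full, the 5 genes nearest in profile and checks of the labels. Alternatives were other normalizations and filters, DESeq2 1.42.0, a length offset, stricter thresholds, covariates for date and Y-linked genes, a replicate block, other pseudocounts and leaving out each mouse.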

Additional observations from a re-analysis of the deposited data

Results flagged for a closer look

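Of 48 groups of 4 or 5 mice examined for a sample far from the others (each of the 10 genes and 14 transcript shares in both unstimulated groups), 1 held such a sample, and chance gives about 2.4. The share of Ybx3-202 in Ybx3 was 76.0% in WT mouse 1 and 77.8% to 78.0% in the other 3 unstimulated WT mice, a gap that made up 0.871 of the range of the group and is small in percentage points.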

How the results depend on the processing

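In every alternative run the 10 genes were lower in CtslΔTEC cells, with log2 differences from -3.74 to -0.22 in unstimulated and -8.77 to -1.14 in stimulated cells, a direction that the choice of the genes fixes. The change on stimulation kept its direction and its call for all members tested. A minimum of 10 counts in every library left 7 of the 10 in the fits of 13 libraries. Of the genotype calls, that of Fam53b in unstimulated cells was lost in 3 runs. Its log2 difference was -0.22 without WT mouse 3, -0.39 with the Y-linked covariate and -0.26 with the replicate block, beside -0.27 in the main fit. This contrast chose the genes, so nothing is read from the calls.

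Genes called between unstimulated genotypes (1943) became 432 with the Y-linked covariate and 1056 with the replicate block on mice 1 to 4, against 1549 for the same 8 mice without it. Deviations of same-numbered mice correlated between -0.157 and 0.352, and 1 of 4 WT mice correlated best with its own number, so the numbers were not read as pairs. Related genes called there (14) became 9 at an adjusted p under 0.05, 2 with the Y-linked covariate and 8 with the replicate block. The median log2 difference of the members (-2.42) became -2.63 with the Y-linked covariate. With the 4 stimulated libraries alone, calls between stimulated genotypes (1898) became 1127 and related genes called (17) became 7. The median of the members there (-2.24) became -2.01 with at least 10 counts in every library, which drops the sparsest members, and -2.53 with a length offset. Interaction calls (856) became 471 at an adjusted p under 0.05, and the members' median interaction (-0.28) became -0.067 with at least 10 counts in every library. With library totals alone the median log2 change of all genes on stimulation went from -0.04 to -0.16 and the calls from 5295 higher and 5738 lower to 4688 and 6317. Without the filter on low counts that median was -0.24, with 5316 higher and 6151 lower calls.

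Leaving out 1 mouse each gave 1534 to 2343 calls between unstimulated genotypes, 945 to 2235 between stimulated genotypes, 10445 to 11075 on stimulation and 334 to 1227 for the interaction. Related genes called ranged from 9 to 16, 11 to 17 and 73 to 81 in the first 3. The members' median ranged from -2.48 to -2.35, -2.41 to -1.99, -1.92 to -1.72 and -0.71 to -0.012 in the order of the comparisons, all 10 members stayed called on stimulation, and 0 transcript shares by genotype in each case and 2 to 8 by stimulation were called. The cause of these changes was not tested. Genotype shares of transcripts were called in 0 cases with counts in place of TPM and with a 10% minimum. The second date only and the replicate block also gave 0, but with 3 against 3 mice or 4 pairs no call could be reached there. The stimulated groups of 2 and the totals of 8085463 and 11792192 counts limit the members with few counts there, such as Slc4a4 and Dapl1.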
